A study of Mus musculus with 6 samples.

Results

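The genes described here are 40 mouse genes for chaperones and the unfolded protein response (UPR), taken by gene symbol from the 46095 rows of a kidney RNA-seq count table. They comprise 10 genes of the cytosolic heat shock system, 3 mitochondrial chaperones, 15 folding factors of the endoplasmic reticulum (ER), 3 genes of ER-associated degradation (ERAD), 4 UPR sensors and transcription factors and 5 genes of the arm run by the transcription factor ATF4. All 40 were found, each on 1 row, and 39 passed the filter on low counts. Chac1, an ATF4-induced enzyme that degrades glutathione, did not, with 51 counts over all libraries. Each library is of kidney RNA. In 3 libraries the mice are labelled as given DHT (dihydrotestosterone, an androgen used in mice to model polycystic ovary syndrome, PCOS) and in 3 as control, all with C57BL/6 as genetic background. The strain label reads PCOS mouse in both groups, and only the treatment label tells them apart. The sources used here state no sex, age, dose or length of treatment. They also leave unsaid whether replicates are different animals, so that the spread behind each p-value may be technical.

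Chaperones bind unfolded proteins and help them fold, and each compartment of the cell has its own set. In the cytosol, unfolded proteins release the heat shock factor HSF1, which raises HSP70, HSP90, HSP110 and HSP40 genes. In the ER, unfolded proteins draw the chaperone BiP off the sensors IRE1, PERK and ATF6. IRE1 splices the Xbp1 mRNA, ATF6 is cut to free a transcription factor, and PERK phosphorylates eIF2alpha, which slows translation and lets ATF4 be made. XBP1 and ATF6 raise ER chaperones and ERAD genes, while ATF4 raises amino acid synthesis genes and, under lasting stress, Ddit3 (CHOP). The tubule epithelium of the kidney makes large amounts of membrane transporters and receptors that are folded in the ER.

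Total counts per library were 15054763 to 18624947 in DHT and 15994714 to 19331942 in control. Levels are given as CPM, the counts of a gene scaled to library size, here with TMM factors. Kidney markers were abundant in every library: Lrp2, which encodes the proximal tubule receptor megalin, stood at 1808, 1924 and 2090 CPM in DHT and 2455, 2972 and 2292 CPM in control, and Umod, the uromodulin gene of the loop of Henle, at 3365, 3097 and 4002 CPM in DHT and 2759, 4471 and 7598 CPM in control. DHT replicate 2 stood apart from the other DHT libraries, at -13.9 on the first principal component against -45.0 and -46.6, with the controls at 27.3 to 42.6. Clock genes moved with the groups: of 18 tested, 5 were called higher and 3 lower in DHT, beside 1.38% and 1.46% of all genes tested. In 17 of the clock genes the groups did not overlap, beside 29.8% of all genes. The summed level of 13 immediate early and handling stress genes was 561, 373 and 535 CPM in DHT, and 226, 295 and 484 CPM in control. The part of either in the results that follow was not tested.

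No chaperone or UPR gene passed the test across all genes. Of 39 tested with edgeR's quasi-likelihood test, 0 were called higher and 0 lower at a Benjamini-Hochberg adjusted p of 0.05, where 1.38% and 1.46% of all 15367 genes tested were called, 2.84% in either direction. At an unadjusted p below 0.05 there were 9 (23.1%), 7 higher and 2 lower, beside 23.9% of all genes. DESeq2 called 2 higher, Hspa8 and Herpud1 (5.13% of the members, beside 5.51% of all genes), and limma-voom called 0 (beside 2.09% of all genes in either direction). With no low-count filter the same 2 genes were called higher, beside 1.64% of all genes, and with the replicate number as a block 0 were, beside 0.553% in either direction. The members' median log2 fold change, DHT minus control, was 0.12, beside 0.003 over all genes tested. Groups did not overlap in 12 of 39 members (30.8%), beside 29.8% of all genes. Both shares are near the background. Of these 12, 8 had every DHT library above every control and 4 had every DHT library below. In this whole-tissue RNA, fewer cells of a type and less RNA per cell cannot be told apart.

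Single libraries decided the number of calls. Without DHT replicate 2, 5 members were called higher and 0 lower (12.5% of 40 tested, beside 4.72% of all genes): Hspa8, Hsph1, Dnajb1, Dnaja1 and Herpud1. Without any other single library the count was 0 in both directions. Calls over all genes, in either direction, were themselves 0.120% without DHT replicate 1, 0 without DHT replicate 3, and 2.32%, 0.0446% and 0.571% without control replicates 1, 2 and 3.

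**Figure D1:**
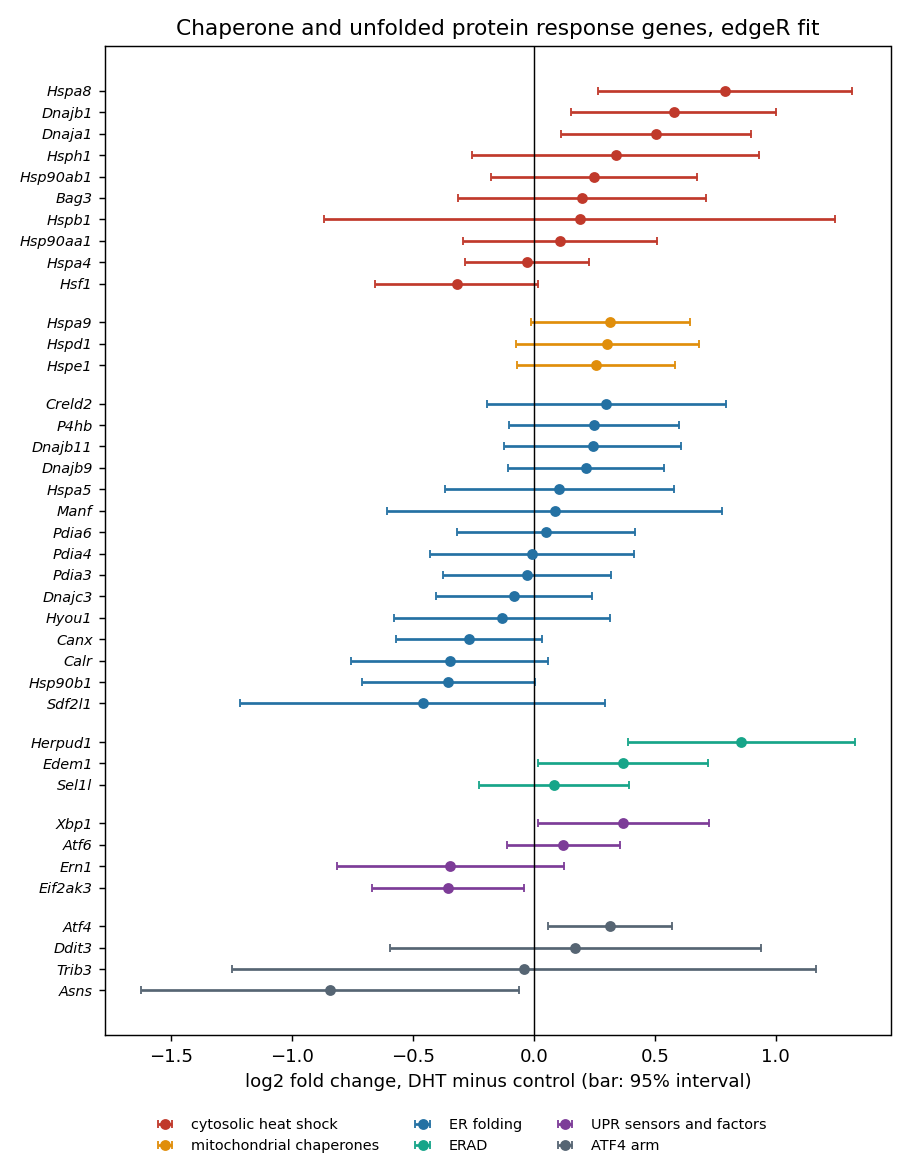
Log2 fold change (DHT minus control, x axis) of the 39 members tested, grouped by class and coloured by it; points are edgeR estimates and bars 95% intervals. Cytosolic Hspa8, Dnajb1 and Dnaja1, the ERAD genes Herpud1 and Edem1, and Xbp1 and Atf4 have intervals above 0, Eif2ak3 and Asns have intervals below 0, and the ER folding genes spread from -0.46 to 0.30 around 0.

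Among the cytosolic genes the largest log2 fold changes were those of the HSP70 Hspa8 and of 2 HSP40 cochaperones. None of these passed the main edgeR test with all 6 libraries. Hspa8 (chromosome 9, 40800984 to 40810087, GRCm38) encodes HSC70, the constitutive HSP70 that folds new proteins, uncoats clathrin vesicles and feeds chaperone-mediated autophagy. Its level was 1525, 943 and 1538 CPM in DHT replicates 1, 2 and 3, and 701, 694 and 923 CPM in control replicates 1, 2 and 3. All DHT libraries lay above all controls, with DHT replicate 2 only just above control replicate 3. The log2 fold change was 0.79 ± 0.23 SE (95% interval 0.26 to 1.31, edgeR adjusted p = 0.0899). With all 6 libraries Hspa8 passed with DESeq2 (adjusted p = 0.00688) and with no low-count filter (edgeR adjusted p = 0.0382). Without DHT replicate 2 its log2 fold change was 0.98 (edgeR adjusted p = 0.0221), and over the other libraries left out in turn it did not pass.

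Dnajb1 (chromosome 8, 83608193 to 83612653), the HSP40 that is itself a classical HSF1 target and starts the HSP70 cycle, stood at 74.5, 49.2 and 80.8 CPM in DHT and 48.5, 40.4 and 48.1 CPM in control. Its lowest DHT value, in replicate 2, exceeded the highest control by under 1 CPM. The log2 fold change was 0.58 ± 0.19 (edgeR adjusted p = 0.113), and 0.76 without DHT replicate 2 (adjusted p = 0.0156). Dnaja1 (chromosome 4, 40722150 to 40737149), another HSP40, which assists protein import and folding, was at 304, 191 and 239 CPM in DHT and 173, 174 and 170 CPM in control. The controls were close to each other and all DHT libraries were above them. Its log2 fold change was 0.50 ± 0.17 (edgeR adjusted p = 0.127), and 0.65 without DHT replicate 2 (adjusted p = 0.0348).

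Hsph1, the HSP110 that strips nucleotide from HSP70 and helps dissolve aggregates, was split by library. It stood at 185, 97.7 and 202 CPM in DHT and 122, 115 and 147 CPM in control, so that DHT replicate 2 was below every control and the other DHT libraries above every control. For this gene the log2 fold change was 0.34 ± 0.26 (edgeR adjusted p = 0.458), and 0.59 without DHT replicate 2 (adjusted p = 0.0477). Hsp90ab1, the constitutive cytosolic HSP90, showed the same order at a higher level, with 1250, 990 and 1510 CPM in DHT and 1057, 1017 and 1083 CPM in control (edgeR adjusted p = 0.451). Its inducible relative Hsp90aa1 was at 369, 236 and 285 CPM in DHT and 291, 272 and 262 CPM in control (edgeR adjusted p = 0.743).

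Hsf1, the transcription factor of the heat shock response, had a lower mean in DHT. It stood at 23.7, 19.1 and 24.7 CPM in DHT and 24.2, 29.5 and 30.5 CPM in control, and the groups overlapped through DHT replicate 3 and control replicate 1. The log2 fold change was -0.32 ± 0.15 (95% interval -0.66 to 0.02, edgeR adjusted p = 0.229). The HSP110 relative Hspa4 was nearly level, at 173 to 184 CPM in DHT and 173 to 188 CPM in control, with an interval of -0.28 to 0.23 for its log2 fold change. Bag3, an HSP70 cochaperone of selective autophagy, was at 31.2 to 45.9 CPM in DHT and 24.5 to 43.2 CPM in control. Hspb1, the small heat shock protein HSP27 (HSP25 in mice), was at 4.78 to 7.59 CPM in DHT and 3.07 to 10.4 CPM in control, with the highest value of all in control replicate 3.

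As a class the 10 cytosolic genes had a median log2 fold change of 0.22, with 8 positive, 3 groups that did not overlap, all above control, and 3 unadjusted p below 0.05. Over all genes tested 29.8% did not overlap (14.8% above control) and 23.9% had such a p, so that 3 of 10 is near the background for both. That median was 0.11 without DHT replicate 3, and 0.44 when control replicate 3 was left out. The heat shock genes Hspa1a and Hspa1b, the strongest markers of an acute heat shock response in most tissues, had 17 and 7 counts over the 6 libraries and were not tested. Near-identical transcripts were not searched for these genes, and how reads that fit both were counted is not known here. Their low counts therefore need not mean low expression.

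**Figure D2:**
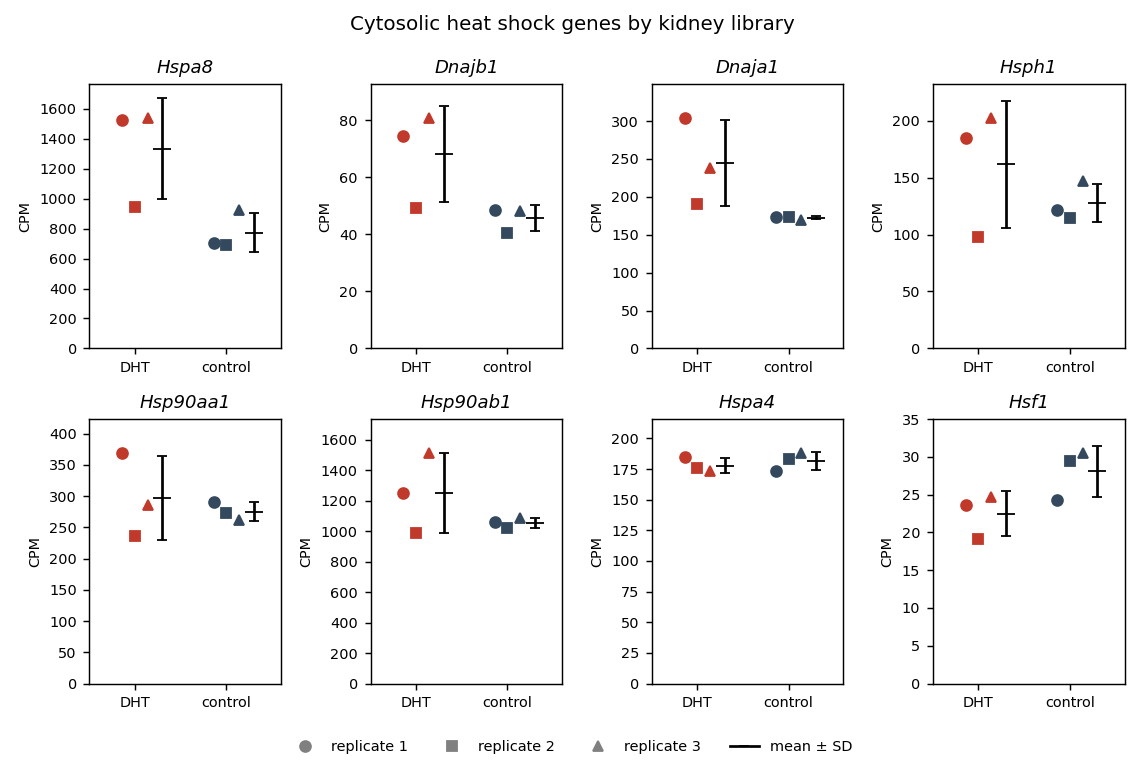
CPM (y axis, from 0) of 8 cytosolic heat shock genes in each library; symbols mark the replicate, bars the mean ± SD (n = 3 each). Hspa8, Dnajb1 and Dnaja1 have every DHT library above every control, and DHT replicate 2 is below all controls in Hsph1, Hsp90aa1, Hsp90ab1 and Hsf1.

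A wider list of 34 tested cytosolic chaperones and cochaperones also held 0 called genes, with 27 positive log2 fold changes and a median of 0.22. At an unadjusted p below 0.05, 11 were higher and 1 lower (12.0% of all genes in each direction). In 13 of 34 (38.2%) every DHT library was above every control, beside 14.8% of all genes tested, and in 1 every one was below. The list was chosen with earlier results of these data known, so these shares are a description and not a test. They depend on the scaling and were not repeated with total counts. The 3 with the smallest p were Cct7, a subunit of the TRiC chaperonin that folds actin and tubulin, Hspb6, a small heat shock protein of muscle, and Hspa12a, a distant HSP70 relative. Cct7 stood at 139, 131 and 156 CPM in DHT and 107, 108 and 105 CPM in control, for a log2 fold change of 0.42 ± 0.11 (edgeR adjusted p = 0.0791). Hspb6 was at 8.17, 6.83 and 7.89 CPM in DHT and 3.63, 5.40 and 3.66 CPM in control (0.85 ± 0.24, edgeR adjusted p = 0.0874). Hspa12a was at 24.7, 31.1 and 24.6 CPM in DHT and 50.4, 31.8 and 41.4 CPM in control (-0.62 ± 0.18, edgeR adjusted p = 0.0904). The TRiC subunits were picked out after their values were seen. All 7 in the list (Cct2, Cct3, Cct4, Cct5, Cct7, Cct8 and Tcp1) had non-overlapping groups with DHT above, at log2 fold changes of 0.20 to 0.42 and edgeR adjusted p of 0.0791 to 0.333. The median of this wider list lay 0.26, 0.11 and 0.30 log2 above the control mean in the DHT libraries, with replicate 2 the lowest.

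The 3 mitochondrial chaperones all had positive log2 fold changes, of 0.26 to 0.32. Hspa9, or mortalin, the HSP70 that pulls proteins into the matrix, stood at 922, 890 and 898 CPM in DHT and 756, 756 and 665 CPM in control. Here DHT replicate 2 lay close to its group and every DHT library was above every control (log2 fold change 0.32 ± 0.14, edgeR adjusted p = 0.222). Hspd1 and Hspe1, the HSP60 and HSP10 that form one folding chamber, are neighbours on chromosome 1 that share a promoter and 112 exonic bases on opposite strands. Hspd1 was at 700, 528 and 623 CPM in DHT and 524, 538 and 437 CPM in control (edgeR adjusted p = 0.298). Hspe1 was at 196, 144 and 180 CPM in DHT and 135, 157 and 143 CPM in control (edgeR adjusted p = 0.308). In both genes DHT replicate 2 ranked among the controls, and the other DHT libraries lay above them all.

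Among the members searched, Hspd1 and Hspe1 had a heat shock element, read as 3 alternating GAA and TTC boxes with 2 bases between boxes, on either strand, in the 250 bases before a start. RefSeq promoters (GRCm38.p6) were searched for 32 of the 40 members, not including Hspa8, Hsp90aa1, Hsp90ab1, Hsf1, Hspa9, Hyou1, Manf and Atf6, and the element stood in 0.466% of all 32851 promoters in that table. The element is shown because the match falls on the same bases in both genes, read from opposite strands, at chr1:55088054-55088081. The other Hspd1 start searched had no such match in its 250 bases, and a match is not a measured binding site. Capitals mark the fixed letters of 2 overlapping matches.
Hspd1 (minus strand): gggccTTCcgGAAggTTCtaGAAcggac
Hspe1 (plus strand): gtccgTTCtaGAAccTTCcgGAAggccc

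Other genes of mitochondrial protein quality control, 12 tested, had 0 called, 10 positive log2 fold changes and a median of 0.20. Clpp, the matrix protease subunit, stood at 63.3, 54.0 and 81.5 CPM in DHT and 39.6, 42.6 and 41.9 CPM in control, for a log2 fold change of 0.68 ± 0.15 (edgeR adjusted p = 0.0543). Dnajc19, a cochaperone of the import motor, was at 57.4, 47.5 and 62.9 CPM in DHT and 37.1, 40.6 and 32.3 CPM in control (0.61 ± 0.14, edgeR adjusted p = 0.0573). Both had every DHT library above every control and were called higher with DESeq2, as were 5.51% of all genes (adjusted p = 0.00566 and 0.00962). Trap1, the mitochondrial HSP90, had a log2 fold change of 0.30 ± 0.14 (edgeR adjusted p = 0.241).

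No ER folding gene passed the test. Their median log2 fold change was -0.01, with 7 positive and 8 negative among 15, none with an unadjusted p below 0.05. Hspa5 (chromosome 2, 34771970 to 34777547) encodes BiP, the ER HSP70 that holds the UPR sensors silent and whose mRNA is the usual readout of ER stress. It stood at 520, 396 and 608 CPM in DHT and 370, 520 and 526 CPM in control, with the groups interleaved. Its log2 fold change was 0.11 ± 0.21, with a 95% interval of -0.37 to 0.58 (edgeR adjusted p = 0.789). That interval leaves room for a sizeable difference in either direction.

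Groups did not overlap in 4 of the 15 ER folding genes (26.7%, beside 29.8% of all genes), a share near the background. In 3 of them, Hsp90b1, Calr and Canx, every DHT library was below every control, as in 2301 of all 15367 genes tested. Hsp90b1 (chromosome 10, 86690209 to 86705509), or GRP94, the ER HSP90 that folds integrins and Toll-like receptors, was at 510, 406 and 495 CPM in DHT and 563, 668 and 571 CPM in control. In log2 terms the fold change was -0.35 ± 0.16 (95% interval -0.71 to 0.004, edgeR adjusted p = 0.213). Calr (chromosome 8, 84841850 to 84846934), the calcium-binding lectin chaperone calreticulin, was at 596, 477 and 718 CPM in DHT and 729, 788 and 762 CPM in control (-0.35 ± 0.18, edgeR adjusted p = 0.272). Canx (chromosome 11, 50293961 to 50325673), its membrane-bound partner calnexin, was at 456, 435 and 435 CPM in DHT and 535, 559 and 504 CPM in control (-0.27 ± 0.13, edgeR adjusted p = 0.256). Canx varied little within DHT, while in Calr and Hsp90b1 DHT replicate 2 was the lowest of all libraries. Their partner in glycoprotein folding, the disulfide isomerase Pdia3, was at 461 to 576 CPM in DHT and 489 to 581 CPM in control.

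P4hb, the disulfide isomerase PDI, was the ER folding gene with every DHT library above every control. It stood at 698, 637 and 806 CPM in DHT and 557, 637 and 609 CPM in control. The lowest DHT and the highest control value differed by under 1 CPM. Its log2 fold change was 0.25 ± 0.15 (edgeR adjusted p = 0.358). The remaining ER folding genes had overlapping groups. They include the BiP cochaperones Dnajb9, Dnajb11 and Dnajc3 (log2 fold changes 0.21, 0.24 and -0.08), the nucleotide exchange factor Hyou1 (-0.13), the disulfide isomerases Pdia4 and Pdia6 (-0.01 and 0.05) and the secreted UPR targets Manf and Creld2 (0.09 and 0.30). Sdf2l1, a BiP partner induced by ER stress, was at 7.16, 4.76 and 11.6 CPM in DHT and 7.87, 12.0 and 12.4 CPM in control, for a log2 fold change of -0.46 ± 0.33 (edgeR adjusted p = 0.427).

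The ER stress element (ERSE), read as CCAAT and CCACG with 9 bases between them on either strand, is bound by ATF6 and XBP1 with NF-Y. It was found in 7 of the 32 members with a promoter, all of them ER folding genes, and in 0.113% of all promoters. The matches are shown because these genes carry the same element while their estimated fold changes, none of them called, differed in sign. Each line reads 5′ to 3′ in the direction of the element, with its fixed letters in capitals.
Hspa5, chr2:34772020-34772048, plus strand: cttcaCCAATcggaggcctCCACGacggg
Hsp90b1, chr10:86705633-86705661, minus strand: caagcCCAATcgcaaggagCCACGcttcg
Hsp90b1, chr10:86705528-86705556, plus strand: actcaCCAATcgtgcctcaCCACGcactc
Calr, chr8:84847070-84847098, plus strand: atgggCCAATgagggtcgaCCACGcgttg
Canx, chr11:50325795-50325823, minus strand: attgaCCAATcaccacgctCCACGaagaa
Pdia6, chr12:17266486-17266514, plus strand: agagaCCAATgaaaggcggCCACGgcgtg
Dnajc3, chr14:118937822-118937850, plus strand: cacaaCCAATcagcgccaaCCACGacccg
Creld2, chr15:88819515-88819543, minus strand: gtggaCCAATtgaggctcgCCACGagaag
The log2 fold changes of these 7 genes ran from -0.35 in Hsp90b1, which holds 2 matches, to 0.30 in Creld2, with Hspa5 at 0.11. None of the 7 had an unadjusted edgeR p below 0.05, and leaving out single libraries turned the sign in Hspa5, Pdia6 and Dnajc3. A match describes letters in the promoter and is not a measured binding site.

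Herpud1 had the largest positive log2 fold change of the 39 members tested. It encodes HERP, an ER membrane protein that assembles the ERAD complex and is raised by several UPR arms. Herpud1 (chromosome 8, 94386438 to 94395377) stood at 305, 257 and 446 CPM in DHT and 204, 178 and 174 CPM in control. Every DHT library lay above every control, DHT replicate 2 included. The log2 fold change was 0.86 ± 0.21 (95% interval 0.39 to 1.33, edgeR adjusted p = 0.0612). It passed with DESeq2 (adjusted p = 0.00195), with no low-count filter (0.0167) and without DHT replicate 2 (1.01, adjusted p = 0.0181), and over the remaining libraries left out in turn the adjusted p reached 0.182.

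Its promoter holds the shorter element ERSE-II, read as ATTGG and CCACG with 1 base between them, which stood in 0.0304% of promoters and in no other of the 32 member promoters searched. It also holds an amino acid response element, read as TGATG and AA with 1 base between them and bound by ATF4, which stood in 3.45% of promoters and also in Asns and Chac1. The 250 bases before the RefSeq start (GRCm38.p6, chr8:94386179-94386428, plus strand) are shown for that pairing, with the amino acid response element (on the opposite strand) and then ERSE-II in capitals.
Herpud1: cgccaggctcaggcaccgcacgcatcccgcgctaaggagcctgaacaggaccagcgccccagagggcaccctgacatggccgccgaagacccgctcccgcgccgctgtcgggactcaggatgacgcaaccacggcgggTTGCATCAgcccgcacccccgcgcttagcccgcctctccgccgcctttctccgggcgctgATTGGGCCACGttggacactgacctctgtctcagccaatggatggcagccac

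Of the other ERAD genes, Edem1, a lectin that hands misfolded glycoproteins to degradation, was at 118, 85.1 and 111 CPM in DHT and 79.1, 91.8 and 72.7 CPM in control. DHT replicate 2 again fell below the highest control. The log2 fold change here was 0.37 ± 0.15 (unadjusted p = 0.0409 and adjusted p = 0.189, both by edgeR). Sel1l, the scaffold of the HRD1 ubiquitin ligase, was at 99.3 to 134 CPM in DHT and 109 to 116 CPM in control, for a log2 fold change of 0.08 ± 0.14 (edgeR adjusted p = 0.748).

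A list of 46 other tested ER folding and quality control genes held 0 called, with 30 positive log2 fold changes and a median of 0.06. Every DHT library was above every control in 7 (15.2%, beside 14.8% of all genes) and below in 0. Vimp, which encodes selenoprotein S of the ERAD complex, was at 68.9, 59.2 and 73.1 CPM in DHT and 47.0, 52.1 and 49.1 CPM in control, for a log2 fold change of 0.44 ± 0.12 (edgeR adjusted p = 0.073). Sec23b, a coat protein of vesicles leaving the ER, was at 161, 77.1 and 147 CPM in DHT and 68.3, 78.7 and 87.3 CPM in control. DHT replicate 2 sat with the controls, and the log2 fold change was 0.72 ± 0.26 with it (edgeR adjusted p = 0.15) and 0.97 without it (adjusted p = 0.00798). Ssr2, a subunit at the translocon, had a log2 fold change of 0.39 ± 0.16 (edgeR adjusted p = 0.178).

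**Figure D3:**
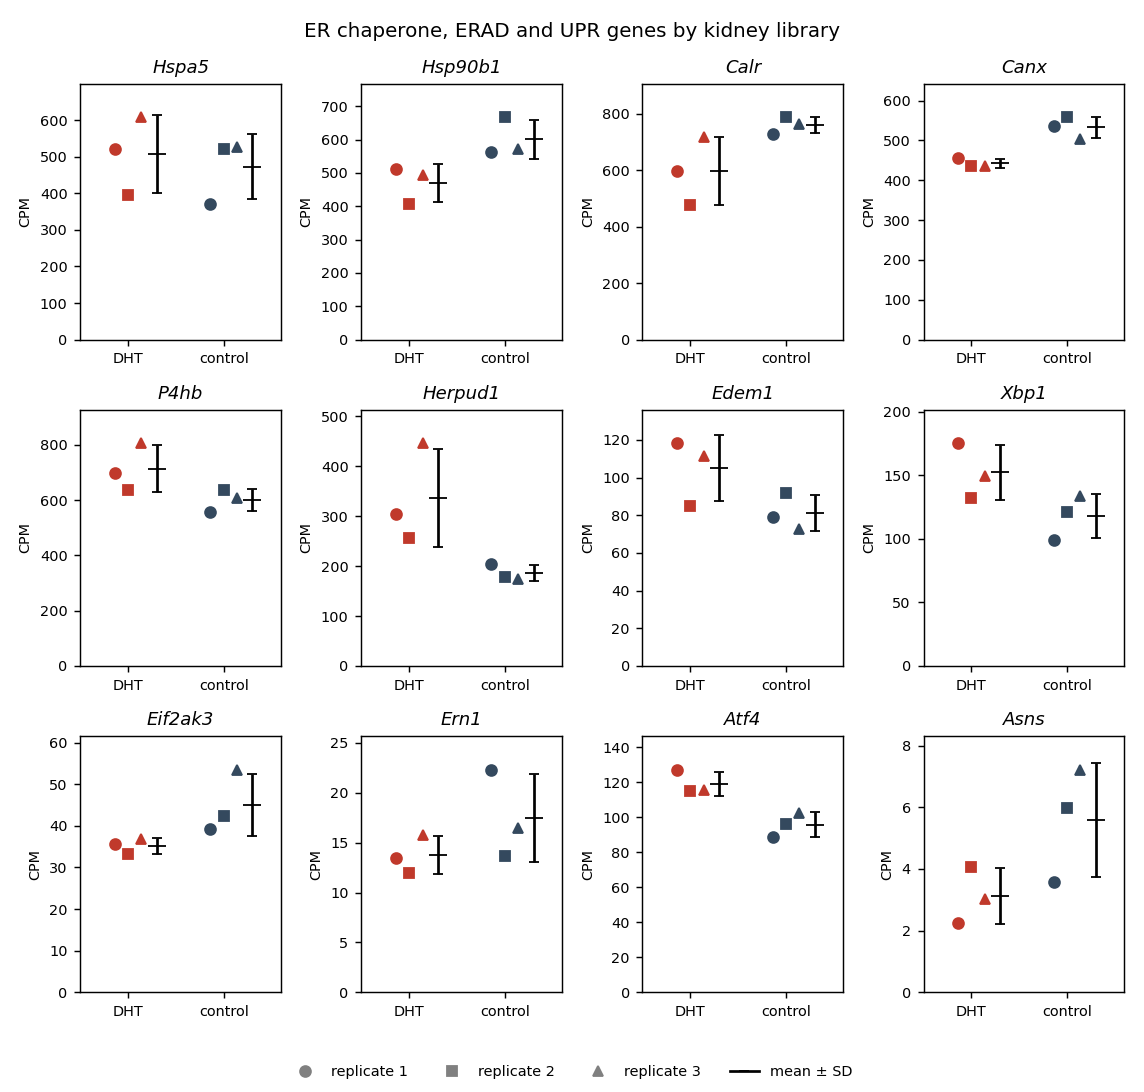
CPM (y axis, from 0) of ER folding, ERAD, UPR sensor and ATF4 arm genes in each library; symbols mark the replicate, bars the mean ± SD (n = 3 each). Herpud1, Atf4 and, by under 1 CPM, P4hb have every DHT library above every control, Hsp90b1, Calr, Canx and Eif2ak3 every one below, and Hspa5 has interleaved groups.

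The UPR sensors and their factors went in both directions within small ranges. Eif2ak3, which encodes the kinase PERK, was at 35.6, 33.1 and 36.9 CPM in DHT and 39.2, 42.3 and 53.5 CPM in control, every DHT library below every control. Its log2 fold change was -0.35 ± 0.14 (95% interval -0.67 to -0.04, edgeR adjusted p = 0.167). Ern1, which encodes IRE1alpha, was at 13.5, 12.0 and 15.8 CPM in DHT and 22.3, 13.7 and 16.5 CPM in control, with overlapping groups (-0.35 ± 0.21, edgeR adjusted p = 0.338). Atf6, the sensor that becomes a transcription factor, was at 69.0, 70.6 and 77.7 CPM in DHT and 66.2, 65.5 and 68.2 CPM in control. Although every DHT library was above every control, the gap was under 1 CPM and the log2 fold change 0.12 ± 0.10 (edgeR adjusted p = 0.505). Xbp1, the target of IRE1, was at 175, 133 and 149 CPM in DHT and 99.4, 121 and 134 CPM in control, and DHT replicate 2 lay just under control replicate 3 (0.37 ± 0.16, edgeR adjusted p = 0.192). Counts per gene do not separate spliced from unspliced Xbp1, so IRE1 activity was not measured.

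In the ATF4 arm no gene passed the test, and of the 4 tested 2 had positive and 2 negative log2 fold changes. Atf4 (chromosome 15, 80255184 to 80257541) was at 127, 115 and 115 CPM in DHT and 88.5, 96.3 and 103 CPM in control, every DHT library above every control (log2 fold change 0.32 ± 0.11, edgeR adjusted p = 0.138). Asns, the asparagine synthetase that ATF4 induces, was at 2.26, 4.07 and 3.03 CPM in DHT and 3.57, 5.97 and 7.22 CPM in control. Its groups overlapped through DHT replicate 2 and control replicate 1, and the log2 fold change was -0.84 ± 0.34 (edgeR adjusted p = 0.18). Ddit3, the stress factor CHOP, was at 10.6, 9.96 and 19.5 CPM in DHT and 10.2, 8.66 and 16.7 CPM in control, with replicate 3 the highest in each group (0.17 ± 0.33, 95% interval -0.60 to 0.94, edgeR adjusted p = 0.787). Trib3, a pseudokinase downstream of CHOP, had 115 counts in all, at 0.653 to 1.75 CPM in DHT and 0.553 to 1.58 CPM in control. Chac1 had 0.251 to 0.653 CPM in DHT and 0.246 to 0.989 CPM in control.

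Other genes of the integrated stress response, 40 tested, held 0 called with 20 positive and 20 negative log2 fold changes and a median of 0.01. At an unadjusted p below 0.05, 6 were higher and 8 lower (12.0% of all genes in each direction), and the groups did not overlap in 13 (32.5%, beside 29.8% of all genes). Phgdh, the first enzyme of serine synthesis, was at 5.78, 8.89 and 7.59 CPM in DHT and 13.0, 10.4 and 19.8 CPM in control, for a log2 fold change of -0.96 ± 0.27 (edgeR adjusted p = 0.0871). Slc7a1, the cationic amino acid transporter CAT1, was at 9.99, 12.0 and 8.37 CPM in DHT and 15.2, 14.4 and 25.4 CPM in control (-0.86 ± 0.25, edgeR adjusted p = 0.0886). Atf3, a stress-induced transcription factor that is also an immediate early gene, was at 5.09, 5.26 and 3.03 CPM in DHT and 2.46, 1.25 and 1.98 CPM in control (1.24 ± 0.36, edgeR adjusted p = 0.0892). These 3 were named for having the smallest p of the list. DESeq2, which called 10.5% of all genes in either direction, called all 3 (adjusted p = 0.0216, 0.0263 and 0.0237).

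On a scale that allows genes to be compared, CPM per kilobase of exon, the cytosolic and ER sets spanned a wide range. Averaged over the groups, the highest were Hsp90ab1, at 417 ± 86.8 in DHT and 351 ± 11.2 in control, and Hspa8, at 310.5 ± 79.1 in DHT and 180 ± 30.4 in control (SD, n = 3 each). Calr followed at 207 ± 41.8 in DHT and 264 ± 10.4 in control, and P4hb at 249.5 ± 29.8 in DHT and 210.0 ± 14.1 in control. These 4 lay at or above the 99.1 percentile of tested genes with a length. The order of the leading ER pair, P4hb above Calr in DHT and Calr above P4hb in control, rests in DHT on a difference close to the SD of Calr there, and in control on one larger than either SD. The sensors were far lower, with Ern1 at 1.68 ± 0.24 in DHT and 2.14 ± 0.54 in control, and Trib3 and Chac1 were below 1. Summed over the 10 cytosolic genes the level was 1005, 714 and 1075 in DHT and 689, 671 and 763 in control. Over the 18 ER folding and ERAD genes it was 1396, 1148 and 1570 in DHT and 1275, 1440 and 1356 in control.

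Setting the cytosolic genes against the ER genes gave a small difference. The mean log2 CPM of the cytosolic class was 7.10, 6.71 and 7.17 in DHT and 6.60, 6.65 and 6.95 in control. For the ER folding and ERAD class it was 7.32, 6.96 and 7.50 in DHT and 7.08, 7.32 and 7.27 in control. Within a library, the cytosolic mean minus the ER mean was -0.23, -0.24 and -0.33 in DHT and -0.48, -0.67 and -0.32 in control. The groups overlapped narrowly there, through DHT replicate 3 and control replicate 3. The difference averaged -0.26 ± 0.06 in DHT and -0.49 ± 0.18 in control (SD, n = 3 each), which is 0.23 log2 higher in DHT, and 0.17 with Hspa8 left out. No p is given for these scores, since the members were chosen with results of these data known.

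**Figure D4:**
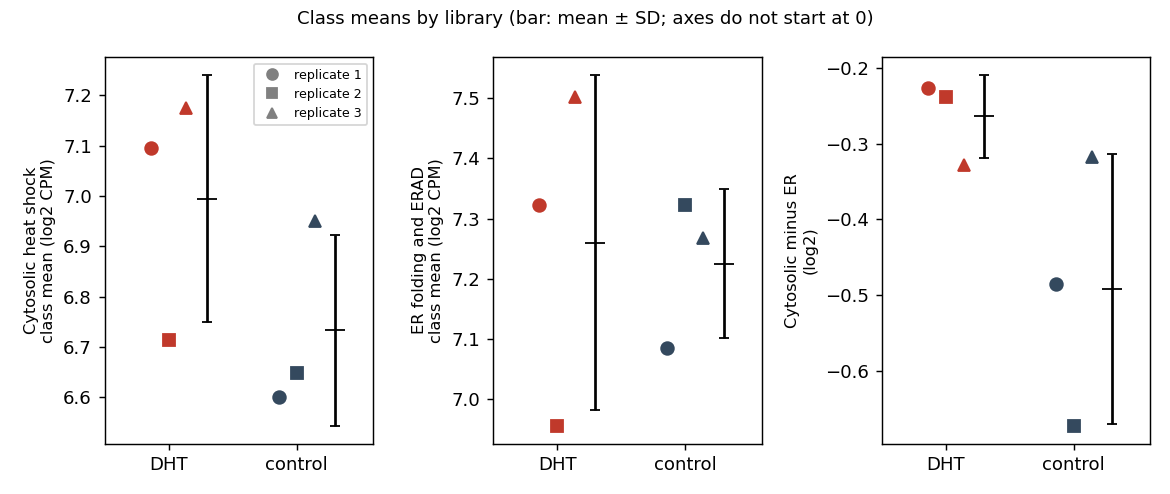
Mean log2 CPM of the 10 cytosolic heat shock genes (left), of the 18 ER folding and ERAD genes (middle) and their difference within each library (right); symbols mark the replicate, bars the mean ± SD (n = 3 each), and the axes do not start at 0. DHT replicate 2 is the lowest DHT library in both class means and not in their difference, where DHT averages -0.26 and control -0.49.

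Ratios of single genes within a library, which no scaling of libraries can alter, were also compared. The log2 ratio of Hspa8 to its ER counterpart Hspa5 was 1.55, 1.25 and 1.34 in DHT and 0.92, 0.41 and 0.81 in control. The log2 ratio of the cytosolic Hsp90ab1 to the ER Hsp90b1 was 1.29, 1.29 and 1.61 in DHT and 0.91, 0.61 and 0.92 in control. For Hsp90aa1 to Hsp90b1 it was -0.47, -0.78 and -0.79 in DHT and -0.95, -1.29 and -1.12 in control. For the HSP40 pair Dnajb1 to Dnajb11 it was -0.59, -0.69 and -0.54 in DHT and -0.70, -1.18 and -0.91 in control. In these 4 ratios every DHT library was above every control. The pairs were chosen after the genes' values had been seen, so no p is given for them. Over all 180 ratios of a cytosolic to an ER gene, DHT was wholly above control in 48 and wholly below in 15, so that 35.0% did not overlap, beside 28.6% of all pairs of genes tested. Hspa8 supplied 14 of the 48, Dnajb1 10 and Dnaja1 8. Hsf1 supplied 11 of the 15.

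DHT replicate 2 was the lowest of the 3 DHT libraries in 33 of the 39 members (84.6%), beside 37.6% of all genes tested. These shares, and the positions that follow, depend on the scaling. The TMM factors of DHT replicates 1, 2 and 3 were 0.931, 1.062 and 0.906, and a larger factor lowers CPM. The count was not repeated with total counts. Among the 18 ER folding and ERAD genes it was the lowest in 17, and in 10 of them it lay below every control. It lay above every control in 2. In DHT replicate 1, 8 of those 18 lay above every control and 4 below, and in DHT replicate 3, 11 lay above and 3 below. Over all genes tested, 33.0%, 30.8% and 34.3% lay above every control in DHT replicates 1, 2 and 3, and 33.1%, 29.6% and 33.7% lay below. The spread within DHT, on the log2 scale, exceeded that within control in 27 of 39 members (69.2%) and in 16 of the 18 ER genes, beside 56.0% of all genes. Sdf2l1, Calr, Hsph1 and Hyou1 are clear cases, each with its lowest value of all 6 libraries in DHT replicate 2.

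**Figure D5:**
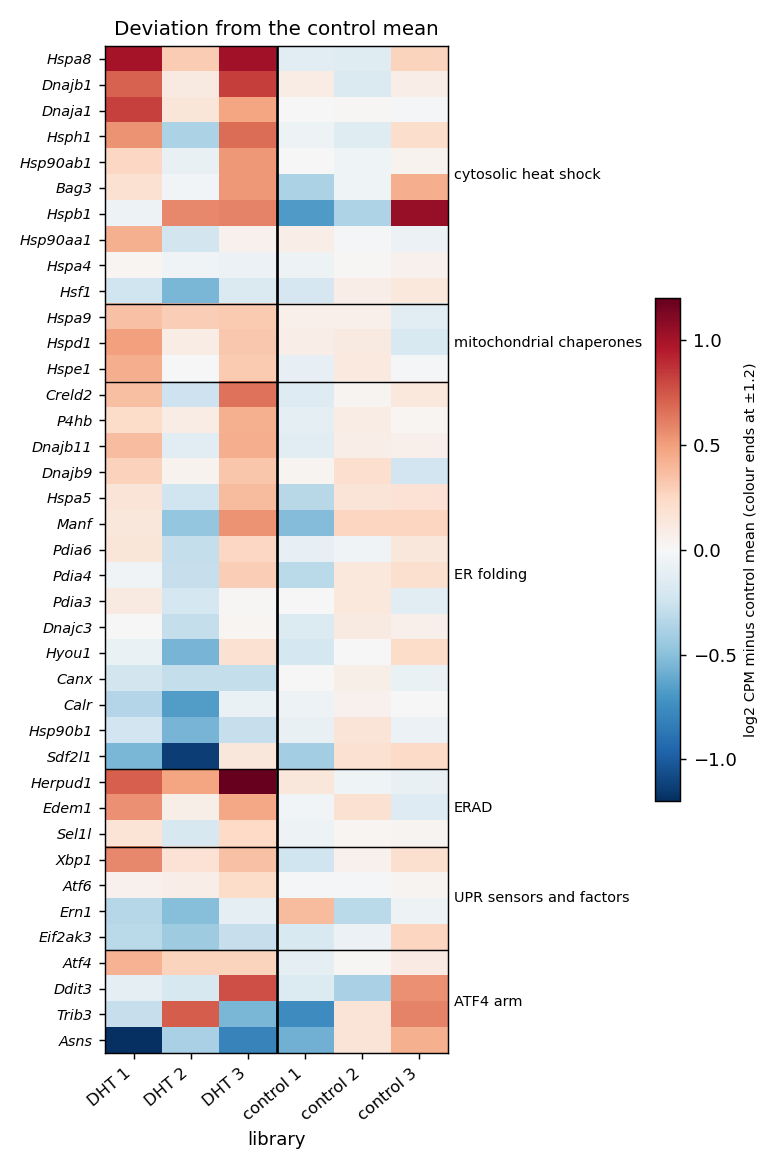
Each tested member's log2 CPM in each library (columns) minus its control mean; red is above and blue below, and the colour scale ends at ±1.2. The DHT replicate 2 column is paler or bluer than its neighbours in most rows, while Hspa8, Dnajb1, Dnaja1, Hspd1, Hspa9, P4hb, Dnajb9, Herpud1, Edem1, Xbp1, Atf6 and Atf4 are above the control mean in all 3 DHT columns.

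Marker levels of other cell types also differed between libraries, and only some of them set DHT replicate 2 apart. The 12 macrophage markers summed to 238, 716 and 500 CPM in DHT, and 226, 304 and 459 CPM in control, with 0 called and 0 groups that did not overlap. The 5 tested red blood cell markers deviated from the control mean by a median log2 of -2.48, 1.71 and -1.92 in the DHT libraries, and of 0.13, 1.10 and -1.38 in the control libraries. All 7 on that list summed to 60.1, 125 and 59.1 CPM in DHT and 90.0, 106 and 161 CPM in control. By that sum control replicate 3 was the highest, but Slc4a1 alone stood at 153 CPM there. The globin genes Hbb-bs and Hba-a1 were at 3.76 and 3.17 CPM in that library, and at 38.4 and 18.0 CPM in DHT replicate 2. The sum therefore does not follow the globin genes. Genes of plasma cells, which have a large ER, and of B cells together summed to 20.7, 31.4 and 22.2 CPM in DHT and 10.8, 26.9 and 24.0 CPM in control. The 12 proximal tubule markers summed to 14789, 13642 and 16933 CPM in DHT and 17313, 15808 and 12878 CPM in control. Loop of Henle and principal cell markers were highest in control replicate 3, at 15061 and 1043 CPM. In DHT the 8 loop of Henle markers summed to 6552 to 8382 CPM and the 7 principal cell markers to 634 to 714 CPM. The part of these cell types in the chaperone values was not tested.

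Some of these genes cannot be counted with certainty, as whether strand was used in counting is not known here. Exons of 10 members overlap a gene on the opposite strand, the longest overlaps being those of Dnaja1 (857 bases), Eif2ak3 (485), Hsp90b1 (415) and Manf (312). Hspa8, Hsp90aa1, Hspb1, Hspd1 and Hspe1 have near-identical transcripts elsewhere. For Hspa8 there are 6 such copies, and those in the table hold counts equal to 3.87% of its own.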

How the data were processed

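The authors deposited raw counts per gene symbol, whole numbers with no normalization, in 1 column per library, matched to samples by title. HISAT2 2.0 and the build mm10 are named in the submitters' processing notes; the counter, annotation and strand setting are not named in the sources used here. Of the rows, 27 rows bear dates in place of symbols (0.142% of counts) and none is a member.

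Counts were filtered with edgeR 4.0.16 (R 4.3.3) by filterByExpr (minimum count 10, minimum total 15), leaving 15367 genes, scaled by TMM and tested with a robust quasi-likelihood fit on group alone, with Benjamini-Hochberg adjustment over all genes at 0.05. SE is the log2 fold change over the root of its F statistic, and 95% intervals follow from it. Class means use log2 CPM with a prior count of 2. Levels per kilobase use joined exons of GENCODE M21 (GRCm38, the assembly of mm10), matched for 93.0% of tested genes. Near-identical transcripts (95% identity over 50% of the length) were found with BLAST 2.17.0+.

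Named in full were, per class, the 4 members with the smallest p, the main regulators and Hspa5, and 3 genes of each wider list; further genes were named after their values were seen. The members and lists were chosen with earlier results of these data known. Alternatives were other scalings and filters, DESeq2 1.42.0, limma-voom 3.58.1, no robust step, a replicate block and leaving out each library. In simulated counts with 200 changed genes (DHT against control, 15049 genes), 16% of those changed 1.5-fold and 50% of those changed 2-fold were called. The genes at these folds were all raised and were not matched to the members in level. No simulated library was made to deviate from its group, so these rates need not hold for the members.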

Additional observations from a re-analysis of the deposited data

How the results depend on the processing

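The count of members called higher, 0, became 2 (Hspa8 and Herpud1) with DESeq2 and 2 with no low-count filter, and ran from 0 to 5 over the libraries left out in turn; the cause was not tested. The count called lower was 0 under each alternative run. Without a low-count filter 1.64% of all genes were called higher. With the replicate block no member was called (0 higher, 0 lower; 0.553% of all genes called in either direction). Same-numbered libraries correlated at 0.073, -0.153 and 0.04 in their deviations, and differently numbered ones at -0.134 to 0.129. With 3 libraries per group, centred within each group, these values cannot decide whether the numbers pair the samples.

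The cytosolic median log2 fold change ran from 0.11 to 0.44 over libraries left out, the ER folding and ERAD median from -0.05 to 0.19, and the cytosolic minus ER difference from 0.14 to 0.32. Total counts in place of TMM moved the median of all genes to -0.10 and that of the ER folding and ERAD genes to -0.06. The cytosolic median became 0.098 and that of all members 0.013, while the cytosolic minus ER difference stayed at 0.228. At an unadjusted edgeR p below 0.05, 4 members were then higher and 6 lower, beside 7.19% and 15.1% of all genes. Total counts also reversed 5 small fold changes: Hsp90aa1 (-0.007), Hspa5 (-0.018), Pdia6 (-0.073), Manf (-0.048) and Sel1l (-0.035). Leaving out libraries turned the sign of 12 members' log2 fold changes, with ranges of -0.074 to 0.24 (Hsp90aa1), -0.12 to 0.93 (Hspb1), -0.05 to 0.25 (Hspa5), -0.10 to 0.05 (Pdia3), -0.17 to 0.11 (Pdia4), -0.058 to 0.19 (Pdia6), -0.17 to 0.002 (Dnajc3), -0.17 to 0.30 (Manf), -0.31 to 0.037 (Hyou1), -0.001 to 0.19 (Sel1l), -0.21 to 0.50 (Ddit3) and -0.59 to 0.32 (Trib3). Depth limits Chac1, Trib3 and Asns, with 51, 115 and 471 counts in all.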
